A study of Mus musculus with 20 samples.

Results

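The genes described are those of acetylcholine transmission through muscarinic receptors: Chat, Slc18a3 and Slc5a7, which supply the transmitter, Ache, which breaks it down, and the receptor genes Chrm1 to Chrm5. They were taken as a named list, by symbol, and make up 9 of the 19214 genes in the count tables. The tissue was the BNST, the bed nucleus of the stria terminalis, a forebrain relay from the amygdala to the hypothalamus, taken from female and male mice. The study set control mice beside mice of an anxiety model produced by chronic restraint stress, and polyadenylated RNA was sequenced. The 4 groups were female controls and male controls, both labelled Control, and the groups titled FS and MS. FS and MS were read as susceptible females and susceptible males. Each group held 5 libraries, 20 in all. No group held stressed mice other than those called susceptible, so restraint and selection for susceptibility cannot be told apart. Below, stress stands for the comparison of susceptible with control libraries. The labels give no strain, age, length of restraint or criterion of susceptibility. Nor do they tie libraries to separate animals, so p-values measure only the spread between libraries, which may be technical.

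Cholinergic neurons make acetylcholine from choline and acetyl-CoA with choline acetyltransferase (Chat), load it into synaptic vesicles with the vesicular transporter encoded by Slc18a3, and take choline back up with the high-affinity transporter encoded by Slc5a7. Acetylcholinesterase (Ache) ends the signal in the cleft and is also made by many neurons that receive cholinergic input. The muscarinic receptors are G protein-coupled: Chrm1, Chrm3 and Chrm5 act through Gq and phospholipase C, and Chrm2 and Chrm4 through Gi and Go, which lower cyclic AMP. In the basal forebrain, cholinergic cells arise from ventral precursors that use the transcription factors Nkx2-1 and Lhx8.

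Slc18a3 is a gene of 1 exon (chromosome 14, 32462438 to 32464850, minus strand, GRCm38, the assembly also called mm10) that lies inside an intron of Chat (chromosome 14, 32408203 to 32465989, minus strand). The annotation gives both genes 0 shared exon bases, but reads from unspliced Chat RNA over the Slc18a3 exon cannot be told apart from Slc18a3 reads. Slc5a7 lies on chromosome 17 (54273590 to 54299034, minus strand) and Ache on chromosome 5 (137287519 to 137294466, plus strand). Because the 3 supply genes varied together between libraries and Ache did not, the sequence just before their RefSeq start sites is shown (GRCm38.p6, 5′ to 3′ on the gene's strand, up to 250 bases, without bases in annotated exons). Capitals mark matches, on either strand, to 6 motifs: TAATTA (LIM homeobox factors), GGGCGG (GC box), GCGGGGGCG or GCGTGGGCG (EGR factors), TGACGTCA (cyclic AMP response element), TTCAGCACC (a part of the RE1 element) and CAGCTG (an E box). The windows are chr14:32465990-32466159 for Chat, chr14:32464851-32465041 for Slc18a3, chr17:54299035-54299284 for Slc5a7 and chr5:137288058-137288253 for Ache.
Chat: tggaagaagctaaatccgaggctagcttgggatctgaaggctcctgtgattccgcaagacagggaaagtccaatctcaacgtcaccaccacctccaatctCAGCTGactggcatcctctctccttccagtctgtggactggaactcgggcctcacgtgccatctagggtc
Slc18a3: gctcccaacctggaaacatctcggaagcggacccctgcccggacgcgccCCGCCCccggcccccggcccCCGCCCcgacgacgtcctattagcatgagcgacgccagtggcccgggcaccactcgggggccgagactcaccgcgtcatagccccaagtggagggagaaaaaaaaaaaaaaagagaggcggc
Slc5a7: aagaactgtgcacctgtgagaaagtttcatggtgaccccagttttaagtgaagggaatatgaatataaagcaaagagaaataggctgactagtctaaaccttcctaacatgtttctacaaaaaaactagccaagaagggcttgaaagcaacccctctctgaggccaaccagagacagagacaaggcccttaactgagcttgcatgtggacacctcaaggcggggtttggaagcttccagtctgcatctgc
Ache: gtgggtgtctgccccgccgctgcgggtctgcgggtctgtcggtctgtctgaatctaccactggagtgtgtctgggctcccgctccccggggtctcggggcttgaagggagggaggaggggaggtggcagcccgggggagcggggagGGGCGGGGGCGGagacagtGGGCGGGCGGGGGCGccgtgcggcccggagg
The Chat window, which ends 80 bases before the RefSeq start, held 1 E box, the Slc18a3 window 2 GC boxes, and the Slc5a7 window none of the 6 motifs, so no motif of the set was common to the 3 supply genes in these windows. The Ache window held 4 GC boxes and 2 EGR matches that overlap them. Of 32851 RefSeq promoters read over 250 bases, 32.7% held a GC box, 13.0% the E box, 4.84% the LIM homeobox motif, 3.06% an EGR match, 1.55% the cyclic AMP response element and 0.301% the RE1 letters. A match is a description of letters and not a measured binding site.

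The libraries held 14637636 to 17862840 counts. Levels are given in CPM, counts scaled to library size with the trimmed mean of M-values (TMM), and changes are log2 fold changes ± standard error from edgeR's quasi-likelihood test. The Benjamini-Hochberg adjustment covered the 14884 genes that passed the count filter, all 9 cholinergic genes included, and the threshold was 0.05. Gad1 and Slc32a1, genes of inhibitory neurons as found in the BNST, were present throughout, at 457 to 893 CPM and 150.3 to 348 CPM. Esr1, an oestrogen receptor gene of the BNST, ranged from 2.91 to 21.9 CPM. Genes used as markers of neighbouring tissue were uneven: Drd2, of the striatum, ranged from 22.1 to 184 CPM, Slc17a7, of cortex and hippocampus, from 11.1 to 719 CPM, and Pmch, of the lateral hypothalamus, from 0.0574 to 118 CPM. Bulk counts do not tell whether BNST cells also made some of this RNA, here and for the marker lists below. Female control 1 stood apart, with the highest Pmch and the lowest Drd2 of the 20 libraries.

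Chat was counted in every library. In the order of library number, it stood at 2.89, 16.1, 15.5, 22.1 and 21.2 CPM in female controls and at 21.1, 25.9, 15.04, 23.7 and 13.6 CPM in susceptible females. Male controls held 22.5, 33.7, 30.3, 23.2 and 21.8 CPM and susceptible males 28.1, 26.7, 30.8, 37.99 and 15.7 CPM. Female control 1 was far below every other library, and susceptible male 4 was the highest. The stressed and control groups overlapped in both sexes. The log2 fold change of Chat with stress was 0.36 ± 0.35 in females (95% interval -0.38 to 1.09; edgeR adjusted p = 0.826) and 0.084 ± 0.35 in males (-0.64 to 0.81; adjusted p = 0.955). In bulk tissue, fewer cells of a type and less RNA per cell cannot be told apart, here and below.

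Slc18a3, the vesicular acetylcholine transporter gene, was at 2.21, 7.72, 8.69, 14.9 and 12.9 CPM in female controls and 16.4, 15.7, 9.44, 14.3 and 5.55 CPM in susceptible females. Its male values were 11.8, 16.998, 15.3, 15.03 and 10.7 CPM in controls and 15.1, 17.3, 15.9, 15.8 and 10.999 CPM in susceptible mice. The lowest library was again female control 1, the next lowest was susceptible female 5, and the groups of each sex overlapped. In females the log2 fold change of Slc18a3, susceptible over control, was 0.41 ± 0.35 (interval -0.32 to 1.14, edgeR adjusted p = 0.800). In males it was 0.10 ± 0.34 (-0.61 to 0.82, edgeR adjusted p = 0.941). Both values are within the spread between libraries.

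Slc5a7, the gene of the choline transporter that limits the rate of acetylcholine synthesis, had the highest mean CPM per kb of exon of the 3 supply genes. Female controls held 7.31, 32.2, 31.8, 55.4 and 48.9 CPM of it and susceptible females 51.9, 63.6, 41.2, 53.7 and 35.04 CPM. In males, controls held 47.05, 56.2, 54.3, 53.6 and 45.02 CPM and susceptible mice 61.1, 57.2, 69.4, 84.1 and 37.8 CPM. In males 4 of the 5 stressed libraries stood above every control and susceptible male 5 stood below every control, so the groups overlapped. The log2 fold change was 0.49 ± 0.33 in females (interval -0.22 to 1.19; edgeR adjusted p = 0.774) and 0.27 ± 0.33 in males (-0.42 to 0.97; adjusted p = 0.812). Without female control 1 the female log2 fold change was 0.088 for Chat, 0.16 for Slc18a3 and 0.22 for Slc5a7, with an edgeR adjusted p of 0.987 for each.

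**Figure D1:**
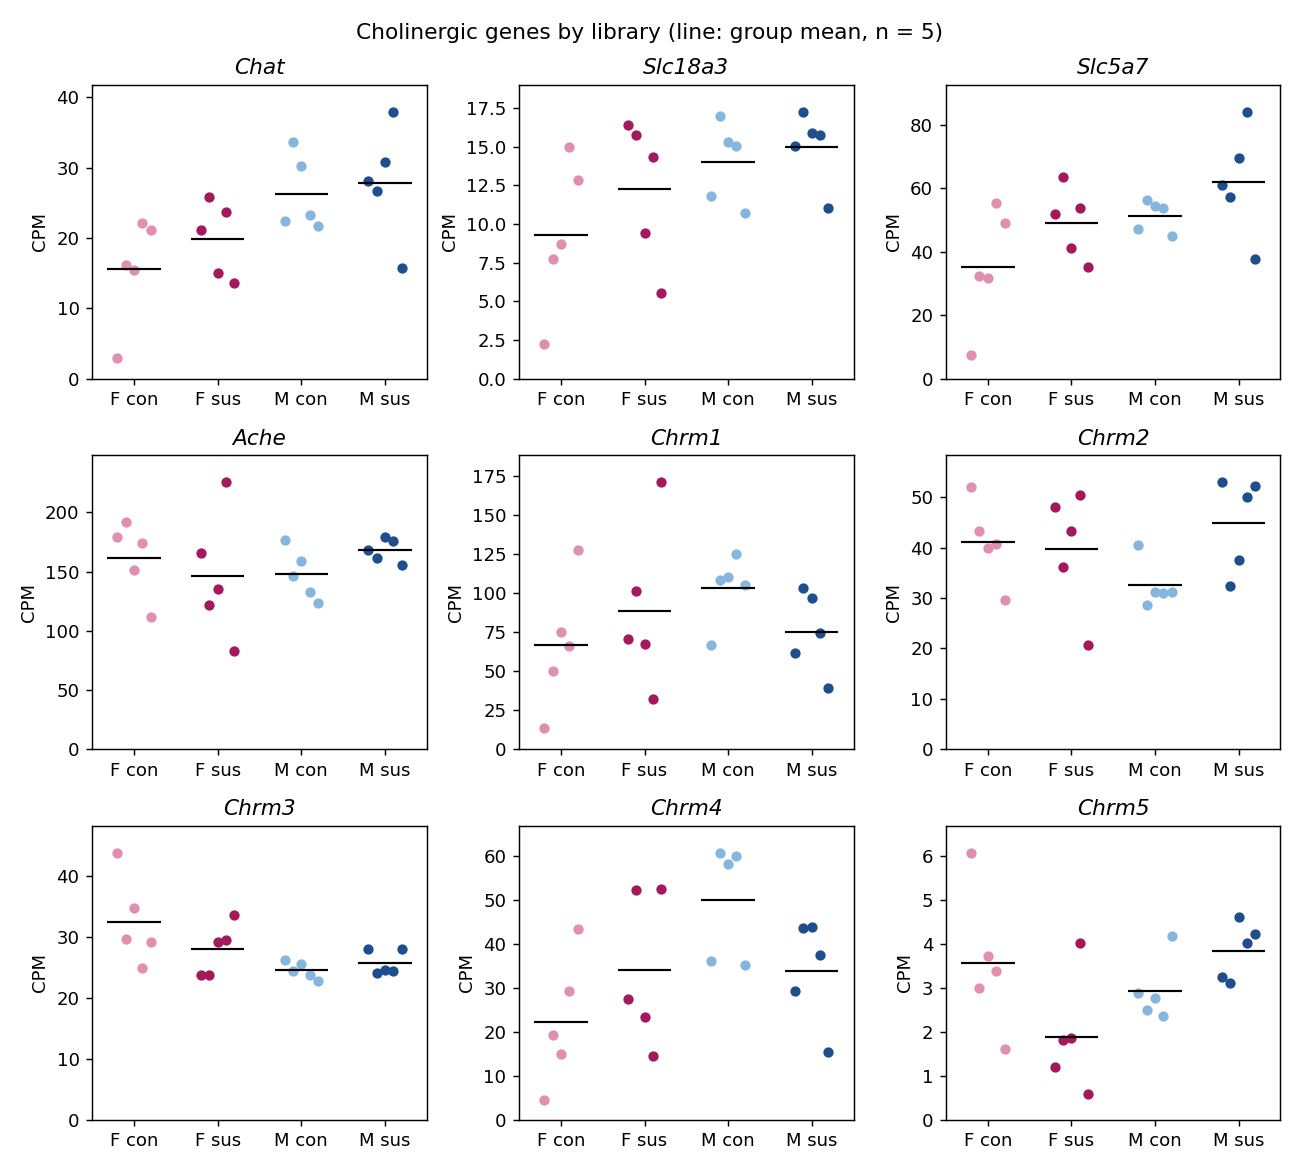
Level in CPM (y axis, linear from 0) of each of the 9 genes in every library, with F con and M con for female and male controls and F sus and M sus for susceptible mice; each point is 1 library, in order of library number, and each line a group mean (n = 5). Female control 1 is the lowest of the 20 libraries for Chat, Slc18a3, Slc5a7, Chrm1 and Chrm4 and the highest for Chrm3 and Chrm5.

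The 3 supply genes kept close to a fixed ratio while their levels moved over a wide range. Chat spanned 13.1-fold from the lowest to the highest library and Slc5a7 11.5-fold, but the ratio of Slc5a7 to Chat CPM stayed between 1.67 and 2.74. The ratio of Slc5a7 to Slc18a3 CPM ranged from 3.17 to 6.31, with the highest value in susceptible female 5. Over the 20 libraries, log2 CPM of Chat and Slc5a7 had Pearson's r = 0.98 and Spearman's rho = 0.91, and r = 0.89 without the 2 libraries farthest from the median of Chat. Chat and Slc18a3 had r = 0.94 (rho = 0.83, r without 2 libraries 0.86). Slc18a3 and Slc5a7 also had r = 0.94 (rho = 0.87, r without 2 libraries 0.87). With group means removed, r was 0.98 for Chat and Slc5a7, so the relation was as close within groups as across them. These correlations describe libraries that share depth and tissue content. Ache did not follow the 3 genes, with r = 0.04 against Chat.

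**Figure D2:**
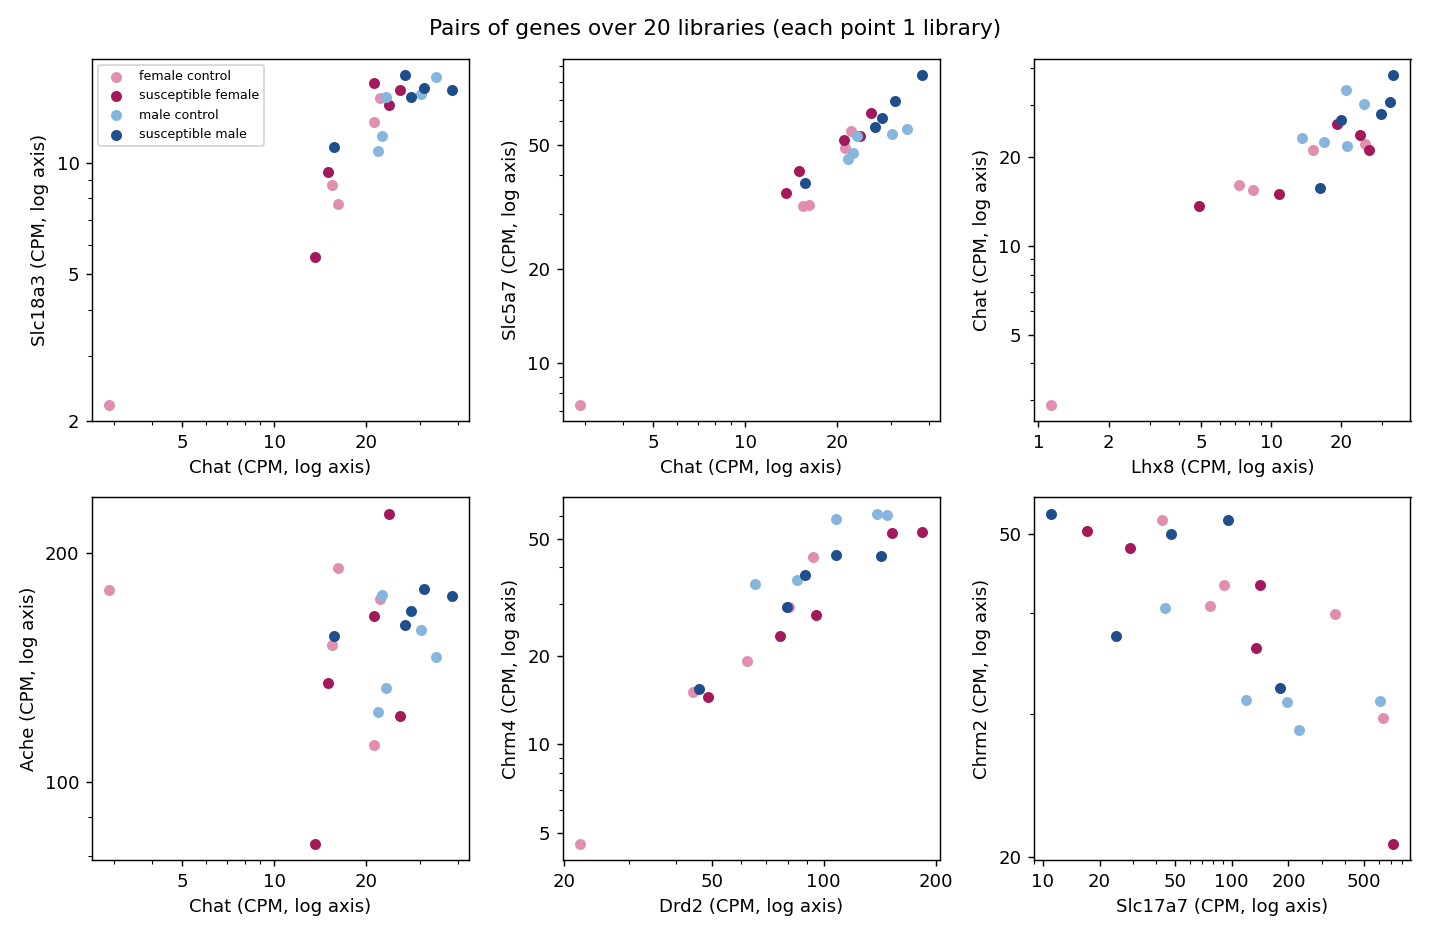
Levels of 6 pairs of genes, in CPM on log axes; each point is 1 library, coloured by group (n = 20). Slc18a3, Slc5a7 and Lhx8 rise with Chat, with female control 1 apart at the lower end, Ache does not follow Chat, Chrm4 follows Drd2, and Chrm2 is lower where Slc17a7 is higher.

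Of 13616 genes searched, Lhx8 and Lhx6 were among the 3 whose log2 CPM was most like each supply gene. Lhx8 is a LIM homeobox gene of forebrain cholinergic neurons, and Lhx6 is a LIM homeobox gene of neurons from the medial ganglionic eminence. Lhx8 had r = 0.93 with Chat (rho = 0.77, r without the 2 libraries farthest from the median of Chat 0.81). Against Slc18a3, Lhx8 had r = 0.95 (rho = 0.75, r without 2 libraries 0.82), and against Slc5a7 r = 0.93 (rho = 0.82, r without 2 libraries 0.83). Lhx6 had r = 0.90, 0.91 and 0.90 with Chat, Slc18a3 and Slc5a7, with rho = 0.83, 0.78 and 0.85 and r without 2 libraries 0.85, 0.83 and 0.87. Lhx8 itself ran from 1.13 CPM in female control 1 to 33.5 CPM in susceptible male 4, the same libraries that held the lowest and the highest Chat. The summed BNST and subpallial list (15 genes, Lhx8 and Lhx6 among them) ranged from 1486 to 2300 CPM in control and 1706 to 2493 CPM in susceptible females, and from 1973 to 2567 CPM in control and 2025 to 2671 CPM in susceptible males. Its score, the mean log2 CPM of the list, had r = 0.72 with Chat, 0.83 with Slc18a3 and 0.75 with Slc5a7. Scores of neighbouring tissue followed the supply genes about as closely over all 20 libraries: in the same order of genes, r was 0.74, 0.64 and 0.76 for 12 striatal markers and -0.69, -0.65 and -0.75 for 4 markers of the lateral hypothalamus. Without the 2 libraries farthest from the median of each supply gene, r was 0.72, 0.83 and 0.79 for the BNST list, 0.37, 0.61 and 0.26 for the striatal list and -0.45, -0.63 and -0.50 for the hypothalamic list. The BNST list holds Lhx8 and Lhx6, which were among the genes most like the supply genes. Its r therefore cannot be set evenly against that of the other lists. The part of these tissues in the levels of the supply genes was not tested.

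A list of 10 other genes that mark forebrain cholinergic neurons was all tested, and 0 of 10 passed the threshold in either sex. Over all genes tested the share that passed was also 0% in each sex, so this count says nothing particular about the list. In females 9 stood higher and 1 lower after stress, with a median log2 fold change of 0.27 against 0.0062 over all genes tested. In males 9 stood higher and 1 lower, with a median of 0.27 against -0.0097 over all genes. Some of these genes also mark other cells of the region. The score of the list, which holds Lhx8, had r = 0.67 with Chat, 0.80 with Slc18a3 and 0.67 with Slc5a7. Without 2 libraries these were 0.65, 0.73 and 0.67. Slc10a4, a vesicular transporter relative found in cholinergic and monoamine neurons, had the highest level per kb of the list and a log2 fold change of 0.48 ± 0.34 in females (edgeR adjusted p = 0.774) and 0.090 ± 0.33 in males (adjusted p = 0.949). Slc17a8, a vesicular glutamate transporter gene, had the smallest p in females (0.37 ± 0.24; edgeR adjusted p = 0.774). Nkx2-1 had the smallest p in males (0.48 ± 0.35; edgeR adjusted p = 0.683).

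Ache had the highest mean CPM per kb of exon of the 9 genes. It stood at 179, 192, 152, 174 and 112 CPM in female controls and 166, 122, 135, 226 and 82.99 CPM in susceptible females. In males it was at 176, 146, 159, 133 and 124 CPM in controls and 168, 161, 179.6, 176 and 156 CPM in susceptible mice. Both the lowest and the highest of the 20 libraries, susceptible female 5 and susceptible female 4, were susceptible females, and no pair of compared groups stood apart. The log2 fold change was -0.14 ± 0.19 in females (interval -0.54 to 0.26; edgeR adjusted p = 0.859) and 0.19 ± 0.19 in males (-0.21 to 0.59; adjusted p = 0.776). Without susceptible female 5 the female value was 0.0028. The genes most like Ache over the 20 libraries were Baiap3 (r = 0.95, rho = 0.89, r without 2 libraries 0.95), Tmem130 (r = 0.95, rho = 0.86, r without 2 libraries 0.91) and Hcn3 (r = 0.94, rho = 0.93, r without 2 libraries 0.94). Ache had r = -0.83 (rho = -0.79, r without 2 libraries -0.68) with the score of 10 markers of cortical and hippocampal excitatory neurons. That list summed to 143 CPM at the least and 1112 CPM at the most in susceptible females, and its part in the level of Ache was not tested. An annotated antisense transcript, Gm42456, shares 98 exon bases with Ache, and no source used here says whether the counting used strand, so reads of both cannot be separated there. The same holds for Chrm1 and Chrm2, whose exons share 329 and 142 bases with the antisense transcripts Gm22820 and 9330158H04Rik.

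Chrm1, the main Gq-coupled muscarinic receptor gene of forebrain projection neurons (chromosome 19, 8663789 to 8683587), varied widely. Its level was 13.8, 49.9, 75.3, 66.1 and 128 CPM in female controls and 70.7, 101, 67.1, 32.1 and 171 CPM in susceptible females. Male controls were at 66.9, 109, 110.4, 125 and 105 CPM and susceptible males at 61.9, 104, 96.8, 74.6 and 39.1 CPM. Both extremes were female, female control 1 at the low end and susceptible female 5 at the high end, and the groups overlapped in both sexes. The log2 fold change with stress was 0.41 ± 0.45 in females (interval -0.53 to 1.35; edgeR adjusted p = 0.832) and -0.46 ± 0.45 in males (-1.39 to 0.48; adjusted p = 0.764). The difference between the sexes, female minus male, was 0.87 ± 0.63 (adjusted p = 0.636). The female value was 0.028 without susceptible female 5, 0.15 without female control 1, 0.62 without susceptible female 4 and 0.78 without female control 5, and the male value was -0.29 without susceptible male 5. With a region score in the model (mean log2 CPM of striatal minus thalamic markers), Chrm1 was -0.13 in females and -0.18 in males, and the difference between the sexes was 0.052. Chrm1 itself had r = 0.93 with the striatal and -0.78 with the thalamic list. This fit therefore takes out any change that Chrm1 shares with those lists, whatever its source. Chrm1 also had r = 0.68 with the cortical and hippocampal list and -0.84 with the list of the lateral hypothalamus. Without libraries over 300 CPM of Slc17a7, the log2 fold change of Chrm1 was 0.65 in females and -0.45 in males. The part of neighbouring tissue in the level of Chrm1 was not tested. Kcnj4, an inward rectifier potassium channel gene, was most like Chrm1 (r = 0.99, rho = 0.95, r without 2 libraries 0.97), followed by Grasp (r = 0.99, rho = 0.95, r without 2 libraries 0.97) and the potassium channel gene Kcnh3 (r = 0.98, rho = 0.95, r without 2 libraries 0.96).

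Chrm4, the Gi-coupled receptor gene that is abundant in striatal neurons (chromosome 2, 91927249 to 91928688), had the widest spread within groups of the 9 genes. Female controls held 4.59, 19.2, 15.1, 29.4 and 43.5 CPM and susceptible females 27.6, 52.3, 23.4, 14.5 and 52.6 CPM. In males it was 36.1, 60.8, 58.3, 60.1 and 35.2 CPM in controls and 29.3, 43.6, 43.9, 37.6 and 15.5 CPM after stress. Female controls reached into the range of male controls through female control 5, and the stressed and control groups of each sex overlapped. With stress the log2 fold change was 0.61 ± 0.45 in females (interval -0.34 to 1.55; edgeR adjusted p = 0.777) and -0.56 ± 0.44 in males (-1.49 to 0.37; adjusted p = 0.705). The signs were opposite, and the test of the difference, female minus male, gave 1.17 ± 0.63 (interval -0.16 to 2.49, edgeR adjusted p = 0.587). Mean CPM was 34.06 in susceptible females and 33.98 in susceptible males, but 22.3 in female and 50.1 in male controls. This difference and the sex difference in controls given below are therefore not separate results. The SD of log2 CPM within groups was 0.82 for Chrm4 and 0.81 for Chrm1, larger than in 96.6% and 96.5% of the genes tested, against a median of 0.198 over all of them.

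Chrm4 and Chrm1 moved together between libraries (r = 0.92, rho = 0.84, r without 2 libraries 0.82). Chrm4 was most like Rgs9 (r = 0.98, rho = 0.97, r without 2 libraries 0.97), a regulator of G protein signalling of striatal neurons. Next came Cpne5 (r = 0.98, rho = 0.95, r without 2 libraries 0.97) and Gng7 (r = 0.98, rho = 0.95, r without 2 libraries 0.95), a G protein gamma subunit gene of the striatum. The score of 12 striatal markers, which include Rgs9, had r = 0.97 with Chrm4 and 0.93 with Chrm1. That list summed to 462 to 2760.5 CPM in control and 1286 to 5674 CPM in susceptible females, and to 2432 to 4567 CPM in control and 1278 to 3885 CPM in susceptible males, and none of its 12 genes was at 0 in a whole group. With the region score in the model, the log2 fold change of Chrm4 was 0.085 in females and -0.28 in males (edgeR adjusted p = 0.999 and 0.610), and without libraries over 1 CPM of Pmch it was 0.098 and -0.36. The female value of Chrm4 was 0.34 without female control 1, 0.39 without susceptible female 2, 0.40 without susceptible female 5 and 0.99 without female control 5. The score contains genes of the same libraries and is no independent measure of dissection. Chrm4 also had r = -0.82 with the thalamic list, so a fit with this score takes out any change that Chrm4 shares with the lists.

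Chrm2, a Gi-coupled receptor gene whose product often acts as an autoreceptor on cholinergic terminals (chromosome 6, 36388084 to 36528414), ran against Chrm1 between libraries (r = -0.80, rho = -0.92, r without 2 libraries -0.89). It stood at 52.04, 43.3, 39.9, 40.8 and 29.7 CPM in female controls and 48.05, 36.2, 43.3, 50.5 and 20.8 CPM in susceptible females. In males, controls were at 40.5, 28.7, 31.2, 31.1 and 31.2 CPM and susceptible mice at 53.02, 32.3, 37.5, 50.03 and 52.2 CPM. Susceptible males 1, 4 and 5 were above every male control, while susceptible males 2 and 3 were below male control 1, so the male groups overlapped. The log2 fold change was 0.47 ± 0.20 in males (interval 0.047 to 0.89; edgeR adjusted p = 0.481) and -0.048 ± 0.20 in females (-0.47 to 0.37; adjusted p = 0.955). The difference, female minus male, was -0.52 ± 0.28 (edgeR adjusted p = 0.594).

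Chrm2 was the 1 cholinergic gene of 9 with an unadjusted p under 0.05 in males, where 9.67% of all genes had one, and no gene in the whole table passed the adjusted threshold there (0%). In males the non-overlap of groups in CPM held for 2.44% of all genes and for 0 of the 9. The excitatory marker list of cortex and hippocampus had r = -0.83 with Chrm2 (rho = -0.84, r without 2 libraries -0.78). It summed to 204 to 914 CPM in male controls and 131 to 398 CPM in susceptible males. The male value of Chrm2 was 0.46 without the 4 libraries that held over 300 CPM of Slc17a7, 1 of them a male control. With the region score in the model it was 0.34. The part of neighbouring tissue in the level of Chrm2 was not tested. The genes most like Chrm2 were Rit2 (r = 0.94, rho = 0.92, r without 2 libraries 0.91), a neuronal small GTPase gene, Selenop (r = 0.91, rho = 0.86, r without 2 libraries 0.83), which encodes a selenium carrier, and the serotonin receptor gene Htr7 (r = 0.90, rho = 0.88, r without 2 libraries 0.84).

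Chrm3, a Gq-coupled receptor gene (chromosome 13, 9875486 to 10360847, minus strand), had the narrowest spread of the 9, with a within-group SD of 0.20. Its values were 43.9, 29.7, 34.8, 24.9 and 29.2 CPM in female controls and 23.8, 23.8, 29.2, 29.4 and 33.7 CPM in susceptible females. They were 26.3, 24.4, 25.6, 23.8 and 22.8 CPM in male controls and 28.03, 24.04, 24.5, 24.4 and 27.99 CPM in susceptible males. Female control 1 was the highest library, and 4 of the 5 female controls stood above every male control. In females the log2 fold change of Chrm3, susceptible over control, was -0.22 ± 0.12 (interval -0.47 to 0.043, edgeR adjusted p = 0.774). In males it was 0.07 ± 0.12 (-0.19 to 0.33, edgeR adjusted p = 0.878). Without female control 1 the female value of Chrm3 was -0.082, and without libraries over 1 CPM of Pmch it was 0.033. Chrm3 was lower where the supply genes were higher, with r = -0.84 against Chat (rho = -0.57, r without 2 libraries -0.68). Most like Chrm3 were Idi1 (r = 0.89, rho = 0.84, r without 2 libraries 0.81), an enzyme gene of sterol synthesis, the cadherin gene Cdh6 (r = 0.88, rho = 0.77, r without 2 libraries 0.80) and Rph3a (r = 0.84, rho = 0.88, r without 2 libraries 0.73), which encodes a synaptic vesicle protein.

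Chrm5, the Gq-coupled receptor gene best known from dopamine neurons (chromosome 2, 112479171 to 112480769, minus strand), had the lowest mean CPM per kb, with 8 to 107 counts per library. It stood at 6.07, 2.998, 3.71, 3.37 and 1.6 CPM in female controls and 1.19, 1.803, 1.86, 4.01 and 0.577 CPM in susceptible females. Male controls were at 2.87, 2.49, 2.75, 2.35 and 4.18 CPM and susceptible males at 3.24, 3.095, 4.61, 4.01 and 4.22 CPM. In females 4 of the 5 stressed libraries were below 4 of the 5 controls, but susceptible female 4 and female control 5 lay in the other group's range. The log2 fold change with stress was -0.89 ± 0.37 in females (interval -1.66 to -0.12; edgeR adjusted p = 0.774) and 0.39 ± 0.36 in males (-0.36 to 1.14; adjusted p = 0.747). The test of the difference, female minus male, gave -1.28 ± 0.52 (interval -2.36 to -0.21; edgeR adjusted p = 0.587). Chrm5 was the 1 gene of 9 with an unadjusted p under 0.05 in females, where 5.85% of all genes had one, and for the difference between sexes, where 8.26% had one. No gene of the table passed the adjusted threshold in either (0% in both), and groups that do not overlap were found for 0 of the 9 and 0.457% of all genes in females.

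The female value of Chrm5 moved with single libraries. It was -0.61 without female control 1, -0.67 without susceptible female 5 and -1.37 without susceptible female 4, and edgeR adjusted p stayed between 0.241 and 0.987 when each library was left out in turn. With the region score in the model it was -0.52. The genes most like Chrm5 were Nynrin (r = 0.91, rho = 0.81, r without 2 libraries 0.81), the scaffold gene Dlg5 (r = 0.90, rho = 0.81, r without 2 libraries 0.80) and Armcx4 (r = 0.89, rho = 0.84, r without 2 libraries 0.84).

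**Figure D3:**
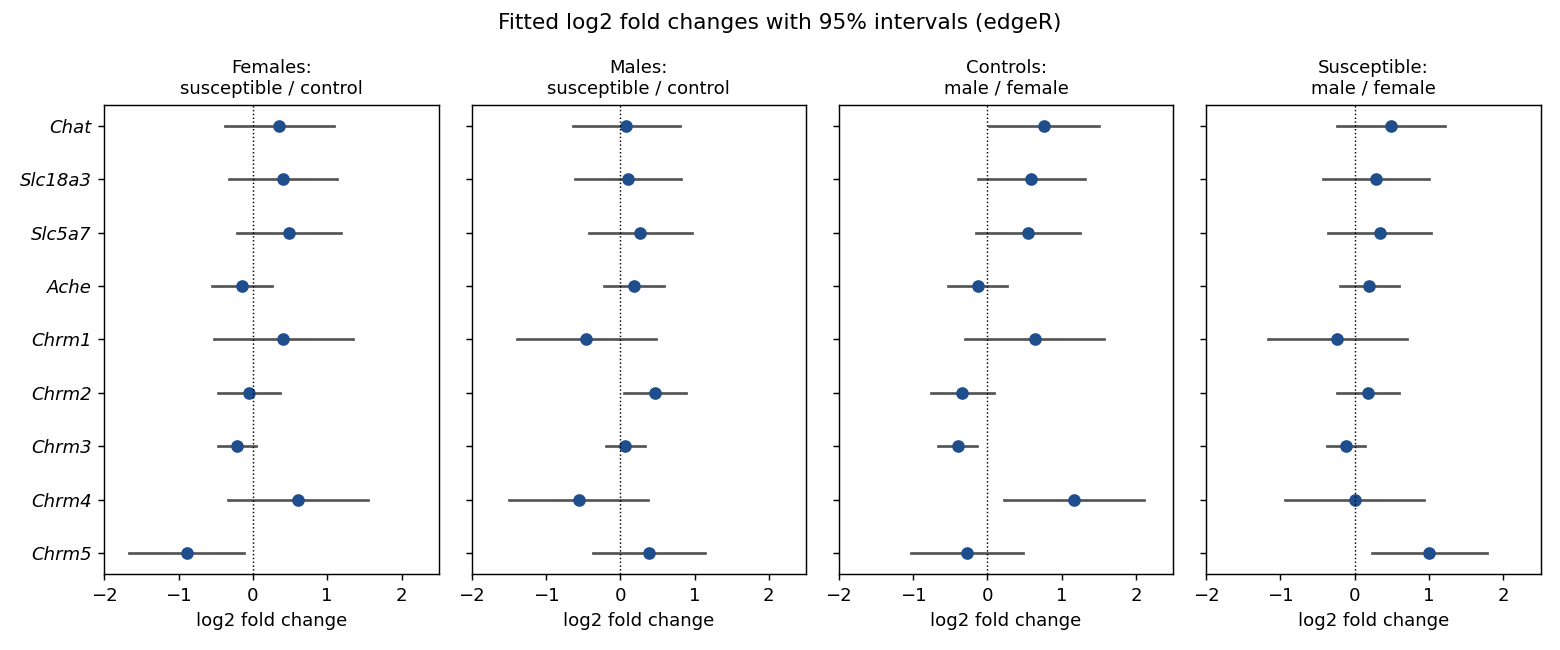
Fitted log2 fold changes (points) with 95% intervals (lines) from edgeR for the 9 genes in 4 comparisons of 5 libraries with 5. Intervals exclude 0 for Chrm5 in females, Chrm2 in males, Chat, Chrm3 and Chrm4 between control males and control females, and Chrm5 between susceptible males and females, and none of these has an adjusted p under 0.05.

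In the mean of both sexes, 0 of the 9 genes had an unadjusted p under 0.05, against 7.71% of all genes, and 0% of all genes passed the adjusted threshold. The largest value was that of Slc5a7, 0.38 ± 0.24 (interval -0.11 to 0.87; edgeR adjusted p = 0.760). Of the 9 genes, 5 stood higher and 4 lower in susceptible females and 7 higher and 2 lower in susceptible males. The median log2 fold change was 0.36 in females and 0.10 in males, beside 0.0062 and -0.0097 over all genes. The supply genes had positive values in both sexes with all 20 libraries. Without those over 1 CPM of Pmch, the female values were -0.19 for Chat, -0.23 for Slc18a3 and -0.12 for Slc5a7. That setting left 2 female controls and 4 susceptible females. Left out were female controls 1, 2 and 3, the lowest of their group for each supply gene. The setting thus also takes out differences that go with Pmch, whatever their source. With this spread between libraries, the interval for Chat in females holds both 0 and a change of 1 on the log2 scale. The 2 stress comparisons use different control groups, but each control group also enters the comparison between sexes.

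Male and female mice were then compared. In controls, 76 of the 14884 genes passed the adjusted threshold (0.511%), 19.2% had an unadjusted p under 0.05, and 3.89% did not overlap between the groups. Of the 9 cholinergic genes 0 passed, 0 did not overlap, and 3 had an unadjusted p under 0.05. Chat stood at 15.6 ± 7.67 CPM in female controls and 26.3 ± 5.37 CPM in male controls (SD, n = 5), with 4 of 5 males above every female and a log2 fold change of 0.76 ± 0.35 (interval 0.023 to 1.49; edgeR adjusted p = 0.248). Chrm4 was 22.3 ± 14.8 CPM in females and 50.1 ± 13.2 CPM in males, a log2 fold change of 1.17 ± 0.45 (edgeR adjusted p = 0.187). Chrm3 was 32.5 ± 7.28 CPM in females and 24.6 ± 1.397 CPM in males (-0.40 ± 0.12; edgeR adjusted p = 0.122). Slc18a3 and Slc5a7 leaned the same way as Chat, with 0.59 ± 0.35 and 0.55 ± 0.33 (edgeR adjusted p = 0.346 and 0.366). The values of Ache, Chrm1, Chrm2 and Chrm5 were -0.13 ± 0.19, 0.64 ± 0.45, -0.34 ± 0.20 and -0.28 ± 0.36, with edgeR adjusted p of 0.716, 0.433, 0.351 and 0.677.

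These control differences moved with the choice of libraries and tool. Female controls 1, 2 and 3 held over 1 CPM of Pmch and no male control did. Without all libraries over 1 CPM of Pmch, which leaves 2 female and 5 male controls, the log2 fold change was 0.27 for Chat, -0.0038 for Slc18a3, -0.035 for Slc5a7, 0.45 for Chrm4 and -0.15 for Chrm3, and the edgeR adjusted p was 0.937 or more for each. Leaving out female control 1 alone gave 0.49 for Chat, 0.90 for Chrm4 and -0.27 for Chrm3. With the region score in the model, Chat was 0.38, Chrm4 0.42 and Chrm3 -0.25, with edgeR adjusted p of 0.751, 0.514 and 0.548. The region score was 0.61 ± 2.27 in female controls and 3.10 ± 1.09 in male controls (SD, n = 5). By limma voom with sample quality weights, which called 3333 genes in this comparison (22.4%), 5 of the 9 genes passed: Chat (1.12, adjusted p = 0.0225), Slc18a3 (0.96, adjusted p = 0.0245), Slc5a7 (0.87, adjusted p = 0.0455), Chrm3 (-0.37, adjusted p = 0.0171) and Chrm4 (1.72, adjusted p = 0.00577). The DESeq2 Wald test called 455 genes (3.06%) and 0 of the 9.

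**Figure D4:**
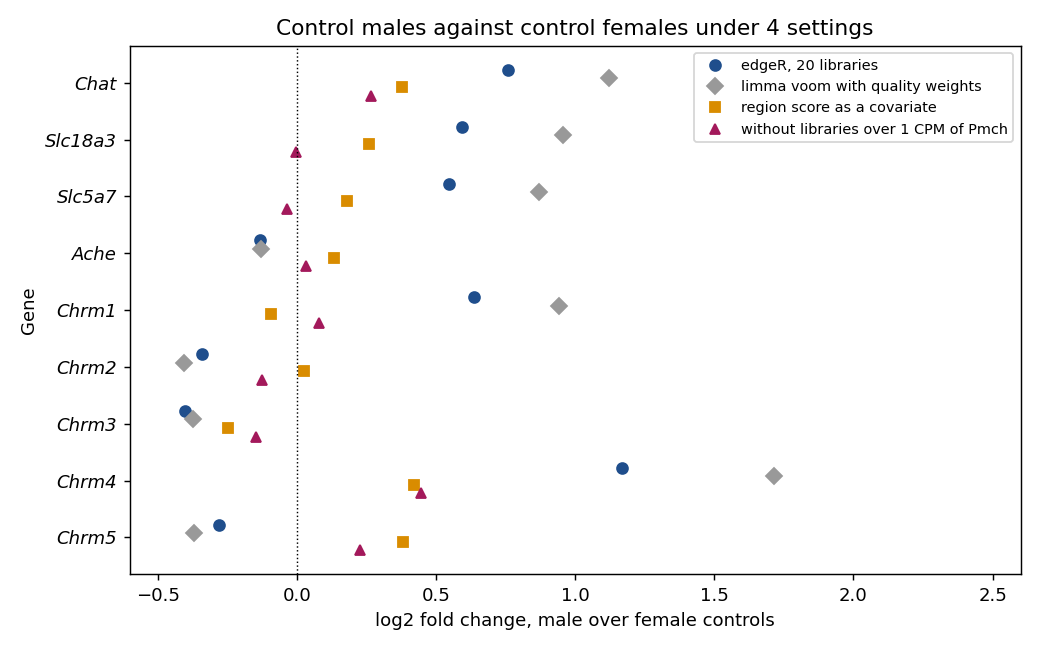
Log2 fold change of male over female controls (x axis) for the 9 genes under 4 settings, each marker being 1 fitted value. The supply genes, Chrm1 and Chrm4 lie to the right with all 20 libraries, furthest by limma voom, and move toward 0 with the region score or without libraries over 1 CPM of Pmch.

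Among susceptible mice, 7 genes of the table passed between the sexes (0.047%), 6.28% had an unadjusted p under 0.05 and 0.779% did not overlap. Of the 9 cholinergic genes 0 passed, 0 did not overlap and 1, Chrm5, had an unadjusted p under 0.05. Chrm5 was 1.89 ± 1.295 CPM in susceptible females and 3.84 ± 0.649 CPM in susceptible males, with 4 of 5 females below every male and a log2 fold change of 1.003 ± 0.37 (interval 0.23 to 1.77; edgeR adjusted p = 0.742). The same group of susceptible females enters the stress comparison, so the female value of Chrm5 there and this one are not independent. Chat was 0.49 ± 0.35 and Chrm4 -0.00068 ± 0.45 on the log2 scale in susceptible males over females (edgeR adjusted p = 0.835 and 0.999).

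Divided by the exon length of GENCODE M21, mean levels over the 20 libraries ran in the order Ache (33.7 CPM per kb), Chrm4 (24.4), Chrm1 (12.9), Slc5a7 (8.74), Chrm2 (6.55), Slc18a3 (5.23), Chat (4.76), Chrm3 (4.43) and Chrm5 (1.91). Between neighbours in this list, the order held in all 20 libraries only for Chrm3 over Chrm5, and in 19 of 20 for Chrm4 over Chrm1. Slc18a3 exceeded Chat in 14 libraries, Chat exceeded Chrm3 in 13 and Chrm2 exceeded Slc18a3 in 13, so these neighbours did not separate beyond their spread. Ache exceeded Chrm4 in 14 libraries, Chrm1 exceeded Slc5a7 in 16 and Slc5a7 exceeded Chrm2 in 16. The annotation holds 1440 bases for Chrm4 and 1599 for Chrm5, 1 exon each, against 6487 for Chrm1, and the gene models behind the authors' counts are not stated, so the place of these genes depends on that length.

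Per kb, Chrm4 made up 45.7 ± 11.9% of the 5 muscarinic receptor transcripts (SD, n = 20), Chrm1 24.6 ± 6.16%, Chrm2 15.1 ± 7.96%, Chrm3 10.1 ± 5.38% and Chrm5 4.50 ± 3.30%. Chrm4 held 35.4 ± 15.1% in control and 45.5 ± 9.45% in susceptible females, and 55.5 ± 5.84% in control and 46.6 ± 8.16% in susceptible males (SD, n = 5). In female control 1 it was lowest, at 12.9%, and there Chrm2 held 34.8%. Each share depends on the other 4 genes, so the shares are not separate measurements. They also rest on the exon lengths used. The 1440 bases of Chrm4 start at 91927249, while its RefSeq start lies upstream at 91922189, so its length may be too short and its share too high. Without division by length, Chrm1 had the higher mean, 83.4 CPM against 35.1 CPM for Chrm4.

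**Figure D5:**
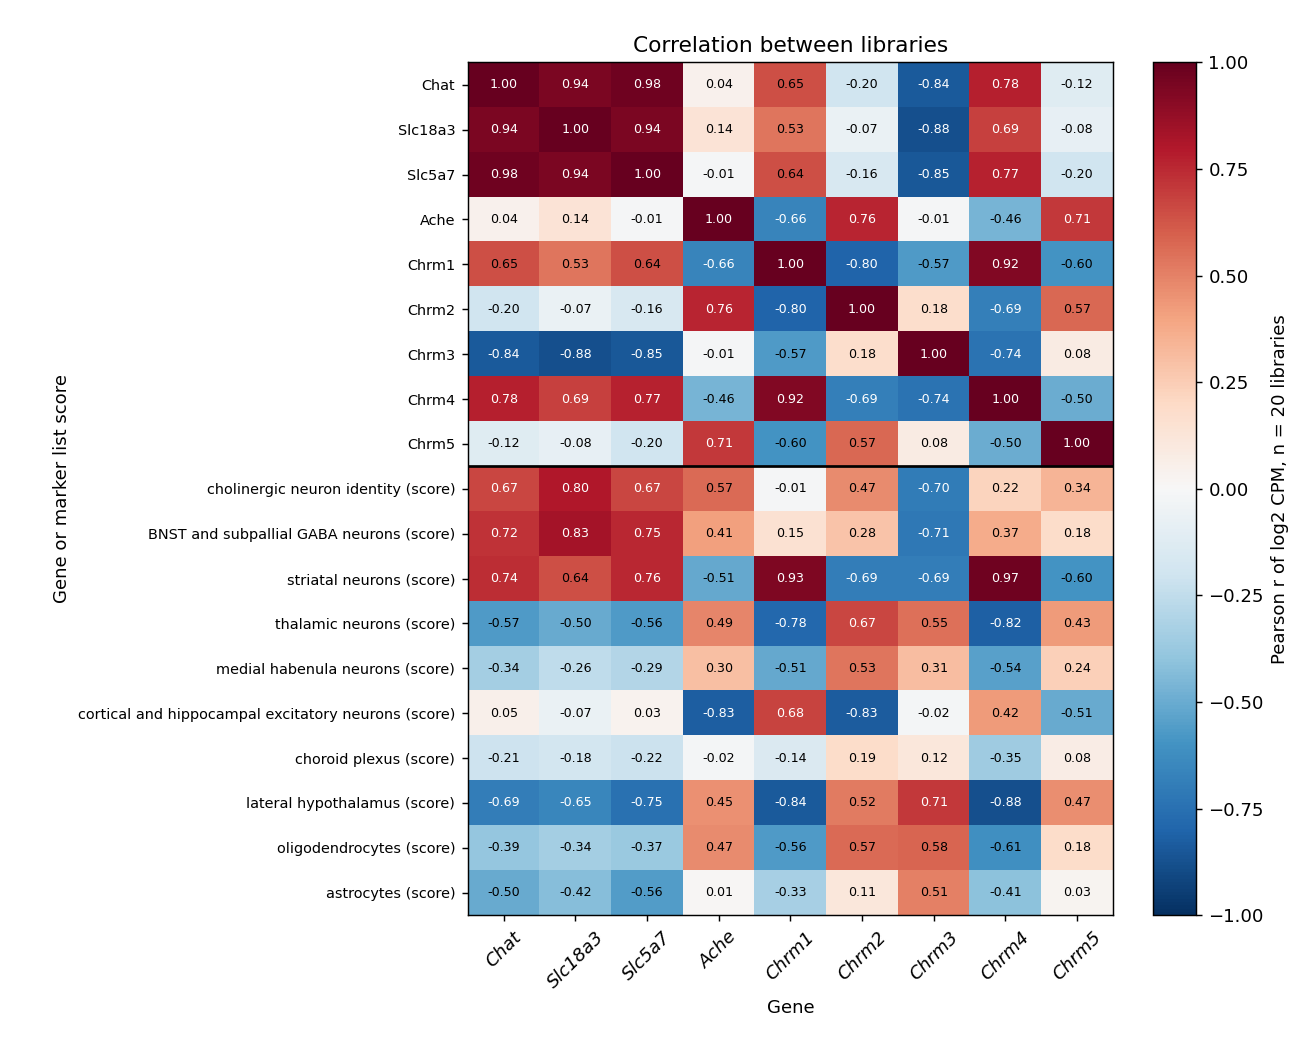
Pearson's r of log2 CPM over 20 libraries between the 9 genes (upper block) and between each gene and the score (mean log2 CPM) of 10 marker lists (lower block), coloured from -1 (blue) to 1 (red). The supply genes form 1 block (r of 0.94 to 0.98), Chrm1 and Chrm4 another (0.92) that follows the striatal list, and Ache and Chrm2 (0.76) run against the cortical and hippocampal list. Without the 2 libraries farthest from the median of Ache, r of Ache and Chrm2 was 0.56.

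The nicotinic receptor genes, the ion channel family that answers to the same transmitter, were covered by 16 listed subunits, of which 10 passed the count filter. In both sexes 0 of 10 passed the test, as did 0% of all genes. In females 4 stood higher and 6 lower, with a median log2 fold change of -0.11, and in males 7 stood higher and 3 lower, with a median of 0.25, beside 0.0062 and -0.0097 over all genes. Chrnb2, the subunit gene found in most brain nicotinic receptors, had the highest level per kb and stayed at 59.6 to 120 CPM, with log2 fold changes of -0.17 ± 0.14 in females and -0.0012 ± 0.14 in males (edgeR adjusted p = 0.790 and 0.998). Chrnb4, a subunit gene of the medial habenula, had the smallest p in both sexes, with 2.02 ± 1.01 in females and 1.91 ± 1.1 in males (edgeR adjusted p = 0.774 and 0.602). Its level was 17.7 CPM in susceptible female 3 and 7.31 CPM in susceptible male 5, and no more than 2.25 CPM in the other 18 libraries. Those libraries also held the most Pou4f1, a transcription factor gene of the habenula, at 20.2 and 8.17 CPM, and its part in the level of Chrnb4 was not tested.

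Genes of choline supply and of the partners of cholinesterase were listed as 16, and 14 were tested. None of the 14 passed in either sex, where 0% of all genes did. In females 5 stood higher and 9 lower (median -0.078), and in males 6 stood higher and 8 lower (median -0.0085). Acly, which makes cytosolic acetyl-CoA, had the highest level per kb and differed by 0.0041 ± 0.078 in females and 0.10 ± 0.078 in males (edgeR adjusted p = 0.992 and 0.696). Cept1, an enzyme gene of the last step of phosphatidylcholine synthesis, had the smallest p in both sexes. Cept1 stood at 45.2 ± 5.43 CPM in female controls and at 50.8 ± 3.89 CPM after stress (log2 fold change 0.17 ± 0.081; edgeR adjusted p = 0.774). In males it was 38.3 ± 3.53 CPM in controls and 48.7 ± 2.37 CPM after stress (0.34 ± 0.081; edgeR adjusted p = 0.405).

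The 24 listed genes of muscarinic signalling cover G protein subunits, phospholipase C beta, potassium channels and regulators. All were tested, and 0 passed in either sex, where 0% of all genes did. In each sex 13 stood higher and 11 lower, with medians of 0.011 in females and 0.012 in males. Gnb1, a G protein beta subunit gene, had the highest level per kb and changed by 0.0044 ± 0.062 and 0.052 ± 0.062 on the log2 scale (edgeR adjusted p = 0.988 and 0.808). Gnb5, the beta subunit that pairs with the R7 regulators, had the smallest p in females at 0.40 ± 0.16 (edgeR adjusted p = 0.774). Gna11, a Gq family alpha subunit gene, had the smallest p in males at -0.17 ± 0.065 (edgeR adjusted p = 0.451).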

How the data were processed

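For every one of the 20 libraries the authors deposited raw counts of reads on genes, whole numbers with unequal sums and so not normalized. Per the labels' protocols, libraries were made from polyadenylated RNA and read in pairs on an Illumina HiSeq instrument. HISAT2, featureCounts and the mm10 assembly are named in the submitters' processing notes, while for versions, gene models, strand and multi-mapping settings nothing is given in the sources used here. Gene identifiers were matched to GENCODE M21 on GRCm38 (19206 of 19214), and the 8 unmatched genes held 0.0026% of counts. Promoters came from RefSeq (GRCm38.p6), which held 8 of the 9 genes.

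Groups were read from the sample titles. Counts were scaled by TMM, filtered with filterByExpr and fitted over all 20 libraries, 1 mean per group, with edgeR 4.0.16 (robust quasi-likelihood test, R 4.3.3). In all 6 contrasts were tested: stress in each sex, their mean and difference (female minus male), and sex in control and in susceptible mice. Total degrees of freedom, residual plus those edgeR borrows from all genes, were 18.3 to 19.4 for the 9 cholinergic genes. Standard errors were derived from the fold change and its F statistic. CPM in the text use TMM library sizes, and correlations use log2 CPM with a prior count of 2. The code was tested on simulated data. No pair of libraries within a group agreed within sampling noise (lowest chi-square per degree of freedom 5.77 over 40 pairs).

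All 9 genes are named whatever their result. Of each companion list the text names the gene with the highest mean CPM per kb, any that passes, and the smallest p in each sex, and for each of the 9 genes the 3 others (mean of at least 1 CPM, no predicted model) with the highest r, of which 1 is not reported here. The genes, the lists and some alternatives were chosen with earlier results of these data known.

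Alternatives were DESeq2 size factors, the DESeq2 1.42.0 Wald test, limma 3.58.1 voom with sample quality weights, no count filter, a filter of 1 CPM in 5 libraries, the replicate number as a block, the compared groups alone, each library left out in turn, libraries over 100 CPM of Ttr or 1 CPM of Pmch left out, and a region score as a covariate. Leaving out libraries over 1 CPM of Pou4f1 or 300 CPM of Slc17a7 was added after seeing the data.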

Additional observations from a re-analysis of the deposited data

Results flagged for a closer look

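A test for a single distant value (Dixon's, critical value 0.71 for 5 libraries) was applied to the CPM of the 9 genes in each of the 4 groups, 36 in all. It marked 2, and chance marks about 1 in 20 groups. Chrm2 was 40.5 CPM in male control 1, while the other 4 male controls lay between 28.7 and 31.2 CPM. Chrm5 was 4.18 CPM in male control 5, while the other 4 lay between 2.35 and 2.87 CPM. Without male control 5, the log2 fold change of Chrm5 with stress in males was 0.55 in place of 0.39. No difference between the sexes in the response to stress passed the adjusted threshold of edgeR for any of the 9 genes (unadjusted p under 0.05 for 1, Chrm5).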

How the results depend on the processing

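Across all alternatives and comparisons, 0 of the 9 genes passed the adjusted threshold in 189 of 190 cases. The exception was limma voom with sample quality weights between control males and females, with 5 called, and the cause was not tested. Values that passed there only were Chat 1.12, Slc18a3 0.96, Slc5a7 0.87, Chrm3 -0.37 and Chrm4 1.72. Counts of called genes in the whole table also moved: 76 by edgeR, 455 by DESeq2 and 3333 by limma voom for sex in controls, and 0, 24 and 723 for males. Signs turned in 39 of 630 values under alternatives other than leaving out 1 library, and none of those values passed. Without libraries over 1 CPM of Pmch, the turned log2 fold changes were Chat -0.19, Slc5a7 -0.12, Chrm2 0.079, Chrm3 0.033 and Slc18a3 -0.23 in females, Chrm4 -0.13, Chrm3 0.043 and Slc18a3 -0.012 in the mean of both sexes, Chat -0.44, Slc5a7 -0.54 and Slc18a3 -0.44 for the difference between sexes, Ache 0.035, Slc5a7 -0.035, Chrm5 0.23 and Slc18a3 -0.0038 for sex in controls. With the region score as a covariate, the turned log2 fold changes were Ache 0.0063, Chrm1 -0.13 and Chrm2 0.17 in females, Chrm4 -0.097 in the mean of both sexes, Chat -0.044 and Slc5a7 -0.095 for the difference between sexes, Ache 0.13, Chrm1 -0.093, Chrm2 0.027 and Chrm5 0.38 for sex in controls, Chrm4 0.058 for sex in susceptible mice. By limma voom, the turned log2 fold changes were Ache -0.038 in the mean of both sexes, Chrm4 0.21 for sex in susceptible mice. Without libraries over 300 CPM of Slc17a7, the turned log2 fold changes were Ache -0.015 and Chrm1 0.10 in the mean of both sexes, Chrm1 0.15 and Chrm4 0.21 for sex in susceptible mice. Without libraries over 1 CPM of Pou4f1, the turned log2 fold changes were Chrm1 0.056 in the mean of both sexes, Chrm4 0.075 for sex in susceptible mice. Without libraries over 100 CPM of Ttr, the turned log2 fold changes were Chrm1 0.077 in the mean of both sexes. With the filter of 1 CPM in 5 libraries, the turned log2 fold changes were Chrm4 0.0048 for sex in susceptible mice. In the fit of the compared groups alone, the turned log2 fold changes were Chrm4 0.0042 for sex in susceptible mice. Leaving out 1 library at a time turned a sign in 36 of 1080 values, with ranges of -0.35 to 0.0028 for Ache in females, -0.15 to 0.11 for Chrm2 in females, -0.053 to 0.23 for Chat in males, -0.084 to 0.099 for Ache in the mean of both sexes, -0.21 to 0.17 for Chrm1 in the mean of both sexes, -0.11 to 0.22 for Chrm4 in the mean of both sexes, -0.049 to 0.44 for Slc5a7 for the difference between sexes, -0.47 to 0.0043 for Chrm5 for sex in controls, -0.45 to 0.15 for Chrm1 for sex in susceptible mice, -0.20 to 0.21 for Chrm4 for sex in susceptible mice. The causes of these turns were not tested.

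The same replicate numbers appear in all groups, without a label that ties them to a shared litter, day or batch. Deviations of same-numbered libraries from their group means correlated at -0.58 to 0.64, and 5 of 20 libraries correlated best with their own number, so the numbers were not taken to pair libraries. With the replicate block, 0 of the 9 genes passed in each comparison, as without it, and signs turned for Chrm1 0.041 in the mean of both sexes and Chrm4 0.069 for sex in susceptible mice. For sex in controls, genes called in the whole table numbered 110 with the block and 76 without it.

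Depth limits Chrm5 most, with 8 counts in its lowest library. The other 8 genes had at least 39 counts in every library. The labels give no batch, so no comparison within batches was possible.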
